A study of Homo sapiens with 17 samples.

Results

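CCT, also called TRiC, is the chaperonin of the cytosol of human cells. The genes of its 8 subunits (TCP1, CCT2, CCT3, CCT4, CCT5, CCT6A, CCT7 and CCT8) were followed across 5 growth states of 1 fibroblast line. The members were the rows of the FPKM table that carry these 8 gene symbols. All 8 were found, among 9699 rows. For each subunit the table gave an RNA-Seq level and a Ribo-Seq level, the density of ribosome-protected fragments on the coding sequence. Translation efficiency (TE) was the log2 ratio of the Ribo-Seq level to the RNA level.

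CCT is built of stacked rings, and each ring holds 1 copy of each of the 8 subunits. It encloses newly made proteins and folds them with the use of ATP. Actins, tubulins and several WD40-repeat proteins such as CDC20 depend on it, and prefoldin and phosducin-like proteins work with it. Around the ring, CCT7, CCT5, CCT2 and CCT4 form the side with the higher affinity for ATP, and TCP1, CCT3, CCT6A and CCT8 form the side with the lower affinity.

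The study asked how transcription and translation are adjusted when growth is arrested or becomes oncogenic. All cells were BJ cells, a human foreskin fibroblast line immortalized with hTERT. Proliferating controls grew in 10% serum, and quiescence was induced by serum depletion. Pre-senescent and senescent cells carried a tamoxifen-inducible RASG12V, which 4-OHT-tamoxifen had switched on for 5 days and for 14 days. Transformed cells carried hTERT, SV40 small T and stable knockdowns, that of p16INK4A among them, and had received RASG12V by retrovirus, so they differed from their control by more than RASG12V.

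The table held 6 RNA and 6 Ribo-Seq columns for 17 libraries. Run 1 gave the first proliferating control, quiescence and pre-senescence, and run 2 gave a second control, senescence and transformation. In 5 columns (run 1 control and quiescence in both assays, and pre-senescence RNA) the authors had combined 2 libraries, and those columns are quoted here as the authors' combined values. No state had replicate columns within a run, so no difference below has a replicate check and no test was run. The table gives no read counts, and the library totals that the study lists were not used here. The nearest thing to a spread is the control, measured in both runs. The RNA libraries of run 1 were read as paired ends and those of run 2 as single ends.

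The labels were checked against known genes. For the Ribo-Seq libraries titled S and C3, the condition fields were exchanged, and the titles and column headings were followed here. The proliferation gene MKI67 was at the table's floor of 1.00 FPKM in both columns headed S. It was at 43.0 and 44.0 FPKM in the Ribo-Seq and RNA columns headed C3. CDK1 Ribo-Seq likewise stood at 1.65 FPKM under S and 96.7 FPKM under C3, and CDK1 RNA at 1.00 and 35.1 FPKM. In both genes the Ribo-Seq columns as headed thus followed the RNA columns of the same heading. CDKN2A, the locus of p16INK4A, was not lower in the library labelled transformed than in its control at the RNA level, with 12.6 against 6.75 FPKM, but was in Ribo-Seq, with 5.51 against 8.92 FPKM, and the row does not say which product of the locus it counts. HRAS RNA was as high in the uninduced run 1 control (2415 FPKM) as in pre-senescence (2102 FPKM), so this row did not mark induction. In the library labelled transformed it was lower than in the control, at 311.5 against 1284 FPKM in RNA and 212 against 2058 FPKM in Ribo-Seq, and whether the row counts the RASG12V transgene is not given in the sources used here. All 8 fibroblast markers looked up were present, VIM at 2956 to 4881 RNA FPKM. In senescence VIM RNA was higher than in its control (log2 0.42). The other fibroblast markers were lower there in RNA, from THY1 (-0.95) to COL1A1 (-4.69). DCN RNA was 27.6 FPKM in the run 1 control and 3.68 in pre-senescence. KRT8, KRT18, KRT19 and CD68 were the only other markers present of 9 looked up for epithelial, endothelial and leukocyte cells, and the others were not analysed here. KRT18 stood at 84.5 to 257 RNA FPKM and CD68 at 38.3 to 132.

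RNA levels of the subunits lay in a narrow band. Over all columns they ranged from 84.3 to 266 FPKM, and every subunit was among the top 835 of the 9699 rows in every RNA column. Within a column the most abundant subunit had 1.62 to 2.66 times the FPKM of the least abundant at the RNA level, and 2.04 to 3.20 times in Ribo-Seq. FPKM is a level per length, so these are comparisons between genes on 1 scale.

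**Figure D1:**
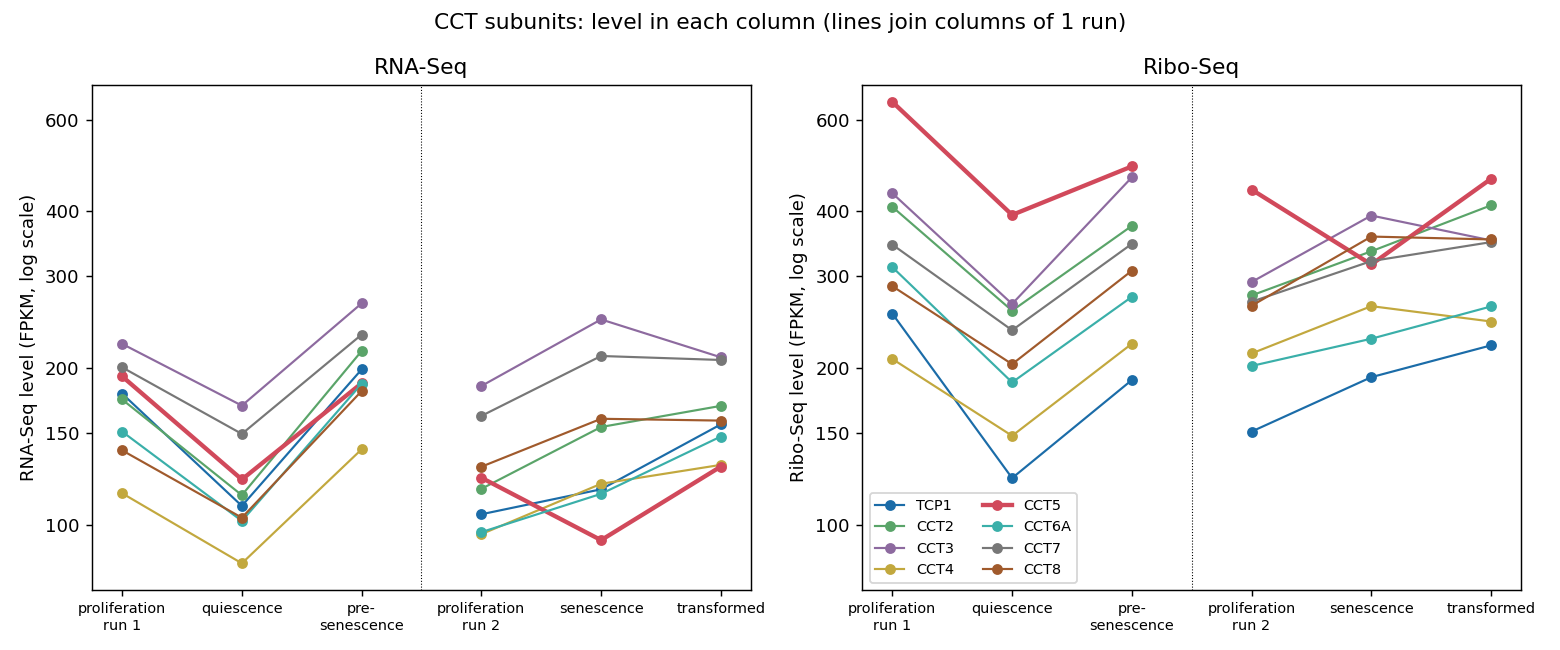
RNA-Seq (left) and Ribo-Seq (right) FPKM of each of the 8 subunits, on a log axis, in the 6 columns of each assay; lines join columns of 1 run and the dotted line separates the runs. Within run 1 all 8 lines dip at quiescence, and in run 2 the thick CCT5 line is lowest at senescence (93.4 RNA FPKM), where the other 7 lie above their control.

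CCT5, on the side of higher affinity for ATP, had RNA levels of 193 FPKM in the run 1 control, 122 in quiescence, 187 in pre-senescence, 123 in the run 2 control, 93.4 in senescence and 129 in transformation. Its Ribo-Seq levels were 649, 394, 488, 441, 316 and 462 FPKM in the same order. It thus had the highest Ribo-Seq level of the subunits in 5 of 6 states, and in senescence it dropped to rank 5 of 8. In RNA it had rank 8 in senescence and in transformation alike.

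CCT2 had RNA levels of 174 FPKM in the run 1 control, 114 in quiescence, 216 in pre-senescence, 117 in the run 2 control, 154 in senescence and 169 in transformation. Its Ribo-Seq levels in that order were 408, 258, 375, 276, 335 and 411 FPKM. Both assays were lowest in quiescence, with the run 2 control close by.

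CCT7 gave RNA levels of 201, 149, 232, 162, 211 and 207 FPKM in the run 1 control, quiescence, pre-senescence, run 2 control, senescence and transformation. In Ribo-Seq it stood at 345, 236, 347, 268, 321 and 349 FPKM. Its spread over states was the smallest of the 8, a ratio of highest to lowest of 1.55 in RNA and 1.48 in Ribo-Seq.

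CCT4, the least abundant subunit at the RNA level in 4 of 6 columns, had RNA levels of 115, 84.3, 139.6, 95.9, 119.9 and 130.3 FPKM in the same order of states. Its Ribo-Seq levels were 208, 148, 223, 213, 263 and 246 FPKM. Of the 8, its Ribo-Seq level differed least between the controls, at 208 and 213 FPKM.

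On the side with the lower affinity for ATP, TCP1, the founding member that names the family, had RNA levels of 179, 109, 199, 105, 117 and 156 FPKM. Its Ribo-Seq levels were 254, 123, 189.7, 151, 192 and 221 FPKM, the lowest of the 8 in 5 of 6 columns. RNA and Ribo-Seq of TCP1 therefore ranked differently: 4 to 6 of 8 in RNA and 7 or 8 of 8 in Ribo-Seq.

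CCT3 had the highest RNA level of the 8 in every column, at 223, 169, 266, 185, 248 and 209.8 FPKM. Its Ribo-Seq levels were 434, 266, 465, 293, 393 and 352 FPKM. In senescence, where CCT5 was lower, CCT3 was also the highest in Ribo-Seq.

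CCT6A had RNA levels of 151, 102, 187, 96.8, 115 and 148 FPKM, and Ribo-Seq levels of 313, 188, 274, 202, 228 and 263 FPKM. CCT8 had RNA levels of 139, 103, 181, 129, 159.8 and 159 FPKM, and Ribo-Seq levels of 287, 203, 308, 264, 358 and 353 FPKM. CCT8 and CCT4 were highest in Ribo-Seq in senescence, whereas CCT6A was highest there in the run 1 control. CCT6A has pseudogene copies of close sequence, and since reads were aligned to protein-coding transcripts alone, reads of such copies could count towards it, so its level is uncertain.

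Since the ring takes each subunit in equal number, each was also expressed as a share of the summed FPKM of the 8, for which an equal share is 12.5%. RNA shares ran from 7.7% (CCT5 in senescence) to 20.4% (CCT3 in senescence). Ribo-Seq shares ran from 6.8% (TCP1 in quiescence) to 22.4% (CCT5 in the run 1 control). CCT2 stayed near an equal share throughout, at 11.6% to 13.4% in RNA and 13.1% to 15.5% in Ribo-Seq. TCP1 took a smaller share of Ribo-Seq than of RNA in every state, for example 8.8% against 13.0% in the run 1 control.

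**Figure D2:**
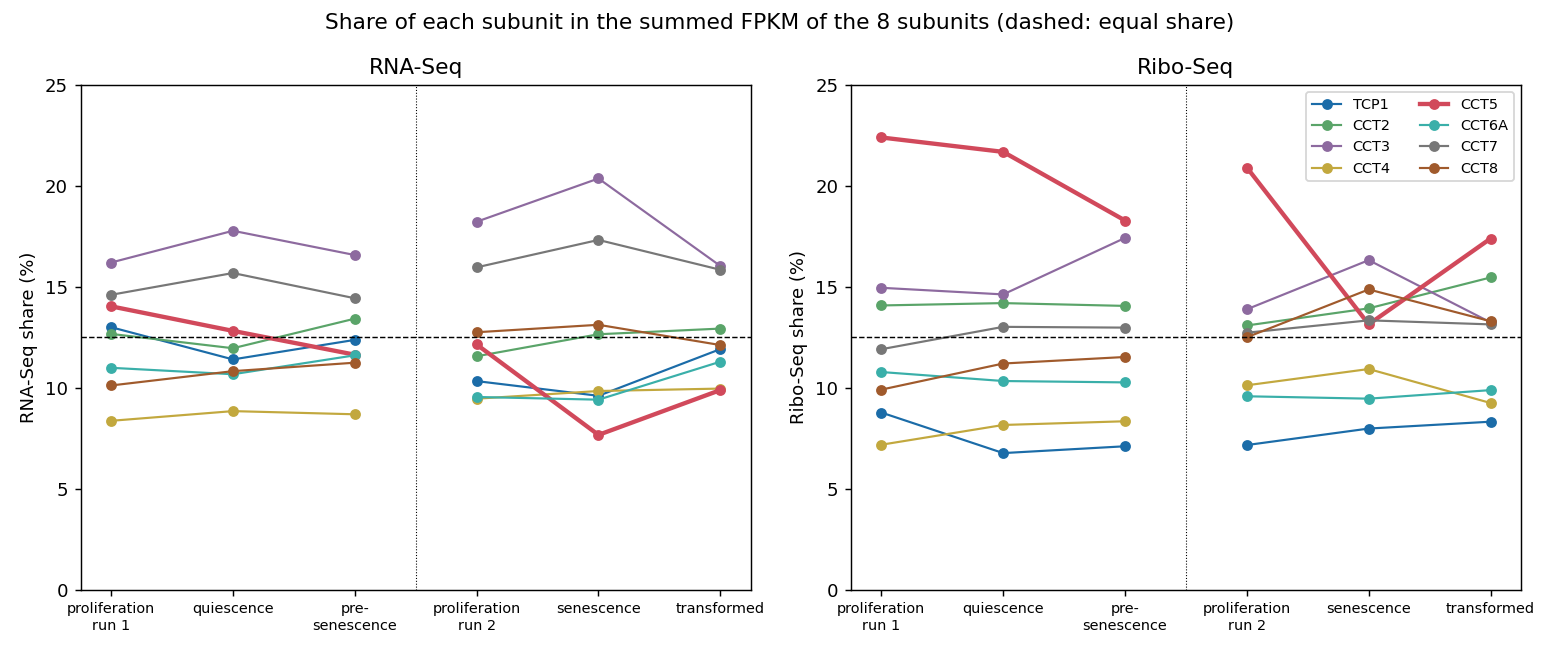
Share of each subunit in the summed FPKM of the 8 (percent), RNA-Seq left and Ribo-Seq right, by state; lines join columns of 1 run and the dashed line is the equal share of 12.5%. CCT5 (thick) moves from 12.1% to 7.7% of RNA and from 20.9% to 13.1% of Ribo-Seq between the run 2 control and senescence, the largest shift drawn.

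TE differed more between subunits than between states. CCT5 had the highest log2 TE in all 6 states, from 1.38 in pre-senescence to 1.84 in the run 2 control, and stood at the 89th to 94th percentile of all rows. TCP1 had the lowest in 5 states, at 0.51 in the run 1 control, 0.18 in quiescence, -0.07 in pre-senescence, 0.53 in the run 2 control and 0.50 in transformation. In senescence TCP1 stood at 0.72, above CCT3 and CCT7. Of the 48 values (8 subunits in 6 states), 46 lay above the median TE of all rows, which was 0.22 to 0.40. Both exceptions were TCP1, in quiescence and pre-senescence. The RNA level counts the whole transcript and the Ribo-Seq level the coding sequence alone, so TE compares a gene with itself across states more safely than it compares genes.

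**Figure D3:**
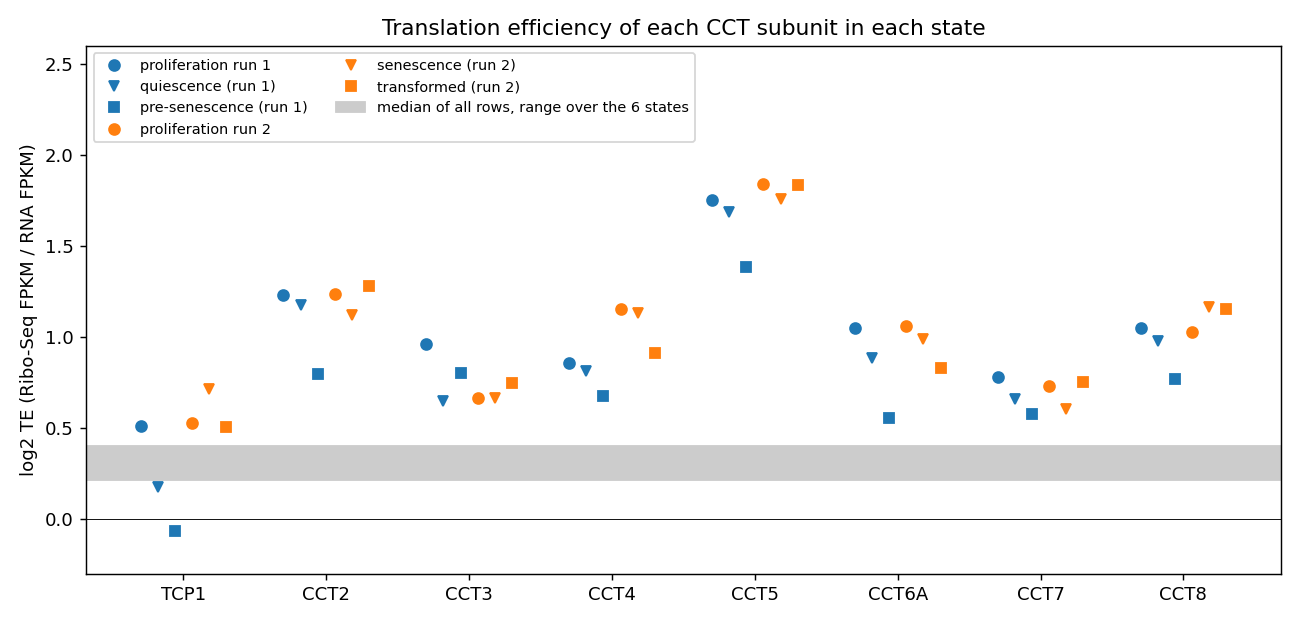
log2 TE (Ribo-Seq FPKM over RNA FPKM) of each subunit in each state; blue marks run 1, orange run 2, and the grey band spans the medians of all rows in the 6 states (0.22 to 0.40). CCT5 lies highest in every state (1.38 to 1.84). TCP1 lies lowest in every state but senescence. Within run 1 the squares of pre-senescence are the lowest of the 3 states for every subunit but CCT3.

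Quiescence, the first comparison, asked what serum depletion did to the subunits. All 8 were lower than in the control of the same run, in RNA and in Ribo-Seq, and they lay close together. The median RNA level was 0.70 of the control (log2 -0.51, range -0.72 to -0.39) and the median Ribo-Seq level 0.62 (log2 -0.68, range -1.05 to -0.49). Over all rows the medians were 0.00 and -0.05. In bulk RNA a change in a share of the cells and a change in every cell cannot be told apart. The standard deviation among the 8 was 0.12 in RNA, against 0.54 among all rows, and 0.18 against 0.79 in Ribo-Seq. All rows include many of far lower level, so that contrast is not matched for level. Other abundant complexes were about as close: 0.11 in RNA and 0.19 in Ribo-Seq for the 20S proteasome core, and 0.12 and 0.27 for cytosolic ribosomal proteins.

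TCP1 (-0.72), CCT5 (-0.66) and CCT2 (-0.61) were past 1.5-fold lower in RNA, 3 of 8 members, where 8.73% of all rows were. In Ribo-Seq 5 of 8 were past 1.5-fold lower, against 22.1% of all rows: TCP1 (-1.05), CCT6A (-0.74), CCT5 (-0.72), CCT3 (-0.71) and CCT2 (-0.66). TE was lower for all 8 by a small amount, with a median of -0.09 beside -0.05 for all rows. No member was past 1.5-fold in TE, where 25.3% of all rows were, and TCP1 (-0.33) and CCT3 (-0.31) were the lowest. With a threshold scaled to the local spread of rows at the same level, no member was past it in any of the 4 comparisons, in RNA, Ribo-Seq or TE. The share of all rows past that threshold was not computed.

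These differences were of the size seen between the controls. The run 2 control was lower than the run 1 control for 8 of 8 subunits in RNA (median -0.44, range -0.77 to -0.10) and for 7 of 8 in Ribo-Seq (median -0.56). TCP1 (-0.77), CCT5 (-0.65) and CCT6A (-0.64) were past 1.5-fold lower in RNA, where 14.1% of all rows were, and TCP1 (-0.75) and CCT6A (-0.63) in Ribo-Seq, where 20.3% were. TE was close in both controls, with a median difference of 0.01, a range of -0.30 to 0.30 and no member past 1.5-fold, where 27.9% of all rows were. Other genes also separated the controls: COL1A1 RNA was 371 FPKM in run 1 and 1328 FPKM in run 2, and KRT19 RNA 1.00 and 39.8 FPKM. Against the other run's control, the median of the subunits in quiescence was -0.078 in RNA and -0.17 in Ribo-Seq. The distance of quiescence from proliferation therefore rests on the control of the same run, and the part of the run in it was not tested.

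**Figure D4:**
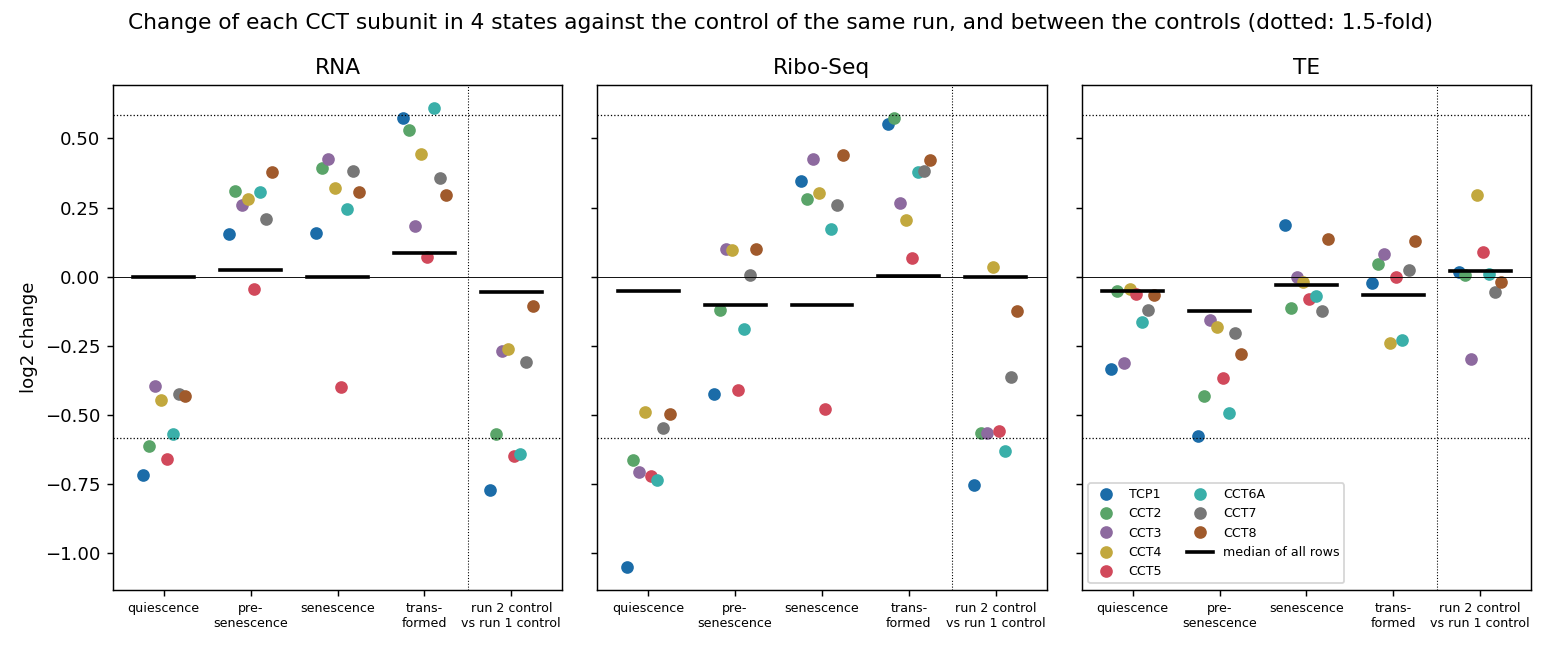
log2 change of each subunit (points) in 4 states against the control of the same run and, right of the dotted vertical, of the run 2 control against the run 1 control, for RNA, Ribo-Seq and TE; black bars are the medians of all rows and dotted horizontals mark 1.5-fold. In RNA the 8 points lie below 0 in quiescence (median -0.51, range -0.72 to -0.39). They also do so between the controls (median -0.44), over a wider range (-0.77 to -0.10). In Ribo-Seq CCT4 (0.04) lies above 0 between the controls. CCT5 lies apart from the other 7 in senescence in RNA and Ribo-Seq but not in TE.

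Pre-senescence, 5 days after RASG12V induction, asked for the early response to the oncogene. RNA was higher for 7 of 8 subunits, by a median of 0.27 (1.21-fold), and TE was lower for 8 of 8, by a median log2 of -0.32. Ribo-Seq levels were near those of the control, at a median of -0.06. The TE change is the Ribo-Seq change less the RNA change, so these values are not independent. CCT8 (0.38), CCT2 (0.31) and CCT6A (0.30) were highest in RNA, and CCT5 (-0.04) was the member not above its control. Of all 9699 rows, 5140 were higher in RNA and 5555 were lower in TE, and the RNA median over all rows was 0.02. Against the run 2 control the medians of the 8 subunits were 0.57 in RNA, 0.35 in Ribo-Seq and -0.45 in TE. The direction of the Ribo-Seq median thus depended on the control used.

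In TE the order was TCP1 (-0.58), CCT6A (-0.49), CCT2 (-0.43), CCT5 (-0.37), CCT8 (-0.28), CCT7 (-0.20), CCT4 (-0.18) and CCT3 (-0.16), beside a median of -0.13 over all rows. In Ribo-Seq TCP1 (-0.42) and CCT5 (-0.41) were the lowest, and 4 of 8 were above the control by 0.01 to 0.10. No member was past 1.5-fold in any measure, where 12.3% of all rows were in RNA, 38.6% in Ribo-Seq and 36.6% in TE. The SD of TE over the controls, pooled over the 8, was 0.11, although CCT3 (-0.30) and CCT4 (0.30) differed between the controls by as much as the median shift. Relative to all rows that shift came to -0.20.

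Pre-senescence and quiescence belong to run 1, and their direct contrast needs no control. All 8 subunits were past 1.5-fold higher in pre-senescence at the RNA level, where 10.8% of all rows were, with a median log2 of 0.77 (1.70-fold) and a range from 0.61 (CCT5) to 0.92 (CCT2). In Ribo-Seq the median was 0.57, and CCT3 (0.81), TCP1 (0.63), CCT8 (0.60) and CCT4 (0.59) were past 1.5-fold higher, 4 of 8, where 16.1% of all rows were. TE had a median of -0.23, with no member past 1.5-fold, where 24.3% of all rows were. In RNA this was the largest median of the contrasts made, and the SD among the 8 was 0.12.

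Senescence, at 14 days of induction, asked for the state in which proliferation had stopped. RNA was higher than in the control for 7 of 8 subunits, with a median of 0.31 over all 8 (1.24-fold), from 0.16 (TCP1) to 0.43 (CCT3). CCT5 was lower, at -0.40. Ribo-Seq gave the same picture, with a median of 0.29, from 0.17 (CCT6A) to 0.44 (CCT8) in the 7 and -0.48 for CCT5. TE was near the control throughout (median -0.05, range -0.12 to 0.19), so the RNA and Ribo-Seq differences of CCT5 were alike in size. Over all rows, 4684 of 9699 were higher in RNA and 4212 in Ribo-Seq, with medians of -0.0017 and -0.10. Against the run 1 control the medians of the 8 subunits were -0.058 in RNA and -0.21 in Ribo-Seq. The direction of the difference therefore depended on the control used.

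No member was past 1.5-fold in senescence, although 40.8% of all rows were in RNA, 49.7% in Ribo-Seq and 31.4% in TE. The SD of the 8 was 0.27 in RNA, against 1.00 among all rows, 0.26 in the 20S proteasome core and 0.24 in cytosolic ribosomal proteins. Without CCT5, left out after its value was seen, the SD of the subunits was 0.09, and the median 0.32. No gene was left out of the other complexes, so their SDs are not to be set beside that of 0.09. Were the Ribo-Seq columns S and C3 exchanged, as the condition fields would have it, the median Ribo-Seq change in senescence would be -0.29. The levels of MKI67 and CDK1 followed the headings and not the condition fields.

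CCT5 was compared with the geometric mean of the other 7 in each column, a measure that needs no control and in which a common shift of the 8 between runs cancels. In RNA it stood at 0.22 in the run 1 control, 0.08 in quiescence, -0.09 in pre-senescence, -0.01 in the run 2 control, -0.72 in senescence and -0.36 in transformation, on the log2 scale. In Ribo-Seq the values in that order were 1.06, 1.00, 0.71, 0.92, 0.12 and 0.59. In both assays the 3 columns labelled with RASG12V induction or transduction lay below the 3 without it, by a wide margin in senescence and narrowly between pre-senescence (-0.09) and the run 2 control (-0.01) in RNA. This grouping of columns was chosen after the values were seen. The share of all rows that divide in this way was not computed, so the order has no background beside it. With the Ribo-Seq columns S and C3 exchanged, 0.12 and 0.92 would change places and the order would not hold in Ribo-Seq, while RNA would stay as it is. MKI67 and CDK1 followed the headings as they stand. CCT2 showed the reverse order in RNA alone, over a smaller range (-0.09 to 0.14).

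The departure of CCT5 from the other 7 in senescence was -0.72 in RNA and -0.80 in Ribo-Seq. Between the controls it was -0.23 and -0.14, where departures of the other 7 ran from -0.37 (TCP1) to 0.39 (CCT8) in RNA and from -0.36 (TCP1) to 0.54 (CCT4) in Ribo-Seq. In transformation it was -0.36 and -0.33, in pre-senescence -0.31 and -0.35, and in quiescence -0.15 and -0.05, so that only the senescence values were larger in size than every departure between the controls. Among the other 7, departures in senescence ran from -0.08 to 0.22 in RNA and from -0.05 to 0.25 in Ribo-Seq.

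The library labelled transformed was compared with the run 2 control. Its cells differed from that control by small T and stable knockdowns as well as by RASG12V, so the part of RASG12V cannot be told apart. RNA was higher for 8 of 8 subunits, by a median of 0.40 (1.32-fold), and Ribo-Seq for 8 of 8, by 0.38 (1.30-fold). Over all rows the medians were 0.08 and 0.00. CCT6A (0.61) was past 1.5-fold higher in RNA, 1 of 8, where 13.1% of all rows were, with TCP1 (0.57) and CCT2 (0.53) next. In Ribo-Seq CCT2 (0.58) and TCP1 (0.55) were highest and no member was past 1.5-fold, where 29.1% of all rows were.

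CCT5 was the lowest of the 8 in that library, at 0.07 in both assays. TE had a median of 0.01 and a range of -0.24 (CCT4) to 0.13 (CCT8), with no member past 1.5-fold, where 15.8% of all rows were. Against the run 1 control the median of the 8 was -0.036 in RNA and -0.096 in Ribo-Seq, so the direction of the difference depended on the control used.

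Senescence and the library labelled transformed are both labelled as RASG12V states and were profiled in the same run. RNA in senescence was lower by a median of 0.13 on the log2 scale, from -0.47 (CCT5) and -0.41 (TCP1) to 0.24 (CCT3). In Ribo-Seq the median was -0.16, from -0.55 (CCT5) to 0.16 (CCT3), and in TE -0.04. No member was past 1.5-fold in RNA, Ribo-Seq or TE, where 45%, 52.4% and 25.9% of all rows were. For comparison, the mitotic activator CDC20, a WD40 protein that CCT folds, had 2.19 RNA FPKM in senescence and 91.6 FPKM in the library labelled transformed.

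The subunits followed each other across columns to different degrees. Over the 6 RNA columns, Pearson's r of a subunit with the mean of the other 7 was 0.99 for CCT2, 0.97 for CCT6A, 0.93 for TCP1, 0.90 for CCT4 and CCT7, 0.82 for CCT3, 0.81 for CCT8 and 0.55 for CCT5. In Ribo-Seq it was 0.98 for CCT7, 0.96 for TCP1 and CCT2, 0.93 for CCT6A, 0.85 for CCT3, 0.73 for CCT8, 0.64 for CCT4 and 0.38 for CCT5. These are descriptions over 6 columns that share runs, and the difference between runs is part of them.

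The genes most like the subunits were sought among 3745 rows with at least 10 FPKM in every column. Likeness was the root mean square difference of the 8 same-run changes (4 states, RNA and Ribo-Seq) from the mean of the subunits. The 8 nearest genes were NSUN2 (0.09), C1QBP (0.10), MRPL9 (0.12), PITHD1 (0.12), PSMD2 (0.13), PSMD12 (0.13), ABCF1 (0.13) and PSMD6 (0.14). On the same measure CCT7 had rank 1, CCT6A rank 3, CCT2 rank 5, CCT4 rank 8, CCT8 rank 18, CCT3 rank 21, TCP1 rank 87 and CCT5 rank 967. The subunits contribute to the mean they were measured against.

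Prefoldin, which delivers unfolded actin and tubulin to CCT, had all 6 subunits in the table. In quiescence its median was -0.21 in RNA but -0.78 in Ribo-Seq and -0.69 in TE, and 4 of 6 were past 1.5-fold lower in TE, against 13.8% of all rows: PFDN4 (-1.33), PFDN5 (-0.94), VBP1 (-0.76) and PFDN2 (-0.62). In pre-senescence TE was past 1.5-fold lower for 5 of 6, against 22.5% of all rows, with a median of -0.77, and PFDN1 (-1.33) was lowest. In senescence all 6 had higher RNA (median 0.56) and lower TE (median -0.51). The lower TE of prefoldin in quiescence stood beside a TE of -0.09 for CCT.

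The phosducin-like co-chaperones, which assist CCT, were PDCL, PDCL3 and TXNDC9. TXNDC9 had Ribo-Seq changes of -0.91 in quiescence and -0.81 in pre-senescence, and PDCL3 had an RNA change of 0.80 in senescence. PDCL differed from both, with a Ribo-Seq change of 0.33 in quiescence and changes of -0.57 in RNA and -0.94 in Ribo-Seq in senescence. Of the other CCT-like genes, BBS10, a chaperonin-like gene of the primary cilium, was the single one present, at 3.26 to 4.61 RNA FPKM.

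The actins and tubulins that CCT folds were lower in quiescence, with a median over 10 genes of -0.75 in RNA and -0.77 in Ribo-Seq. ACTB RNA was 4720 FPKM in the run 1 control and 2230.4 FPKM in quiescence (log2 -1.08), and ACTG1 was at -0.96. The tubulin gene TUBA1A went the other way, from 43.8 to 151 RNA FPKM (1.79). In senescence the median was -0.19 in RNA and -0.35 in Ribo-Seq, where TUBB2A stood out, at 34.1 RNA FPKM in the control and 136 FPKM in senescence (1.99). In the library labelled transformed the median was -0.12 in RNA and -0.42 in Ribo-Seq, while 8 of 8 CCT subunits were higher. The tubulin folding cofactors, which receive tubulin from CCT, had a median of -0.28 in RNA and 0.00 in Ribo-Seq in quiescence, and TBCA (-0.84) was the one past 1.5-fold lower in Ribo-Seq.

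Among WD40 substrates, CDC20 differed most, at -1.77 in RNA in quiescence and -5.30 in senescence. The G-protein subunits GNB1 (-0.14) and GNB2 (-0.02) were near the control in quiescence. The mTOR partners MLST8 and RPTOR had 9.18 and 9.51 Ribo-Seq FPKM in the run 1 control and 12.7 and 10.7 FPKM in quiescence.

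Other chaperones gave a scale for the subunits. The 8 cytosolic chaperones that pass on substrates had medians of -0.23 in RNA and -0.38 in Ribo-Seq in quiescence, and HSP90AA1 was the lowest (-0.77 and -1.04). In the library labelled transformed they were higher for 8 of 8 in RNA (median 0.46) and 7 of 8 in Ribo-Seq (median 0.59), HSP90AB1 by 0.64 and 0.89. The mitochondrial chaperonin genes HSPD1 and HSPE1 were at -0.66 and -0.53 in RNA in quiescence, and at 0.49 and 0.82 in the library labelled transformed.

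The core of the 20S proteasome, another complex with a fixed number of each subunit, had a median RNA change of -0.16 in quiescence, 0.27 in pre-senescence, 0.39 in senescence and 0.34 in the library labelled transformed. Its median TE was -0.29, -0.59, -0.41 and -0.37 in that order, so that in each state it lay below the TE of CCT (-0.09, -0.32, -0.05 and 0.01). The 75 cytosolic ribosomal proteins had a median TE of -1.11 in quiescence and 73 of 75 were past 1.5-fold lower, against 13.8% of all rows, with a median RNA change of 0.07. In these values, against the control of the same run, the lower Ribo-Seq level of CCT in quiescence went mainly with lower RNA. That of ribosomal proteins went with lower TE. Against the other run's control the CCT medians were -0.078 in RNA, -0.17 in Ribo-Seq and -0.11 in TE, so for CCT this division depended on the control used.

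**Figure D5:**
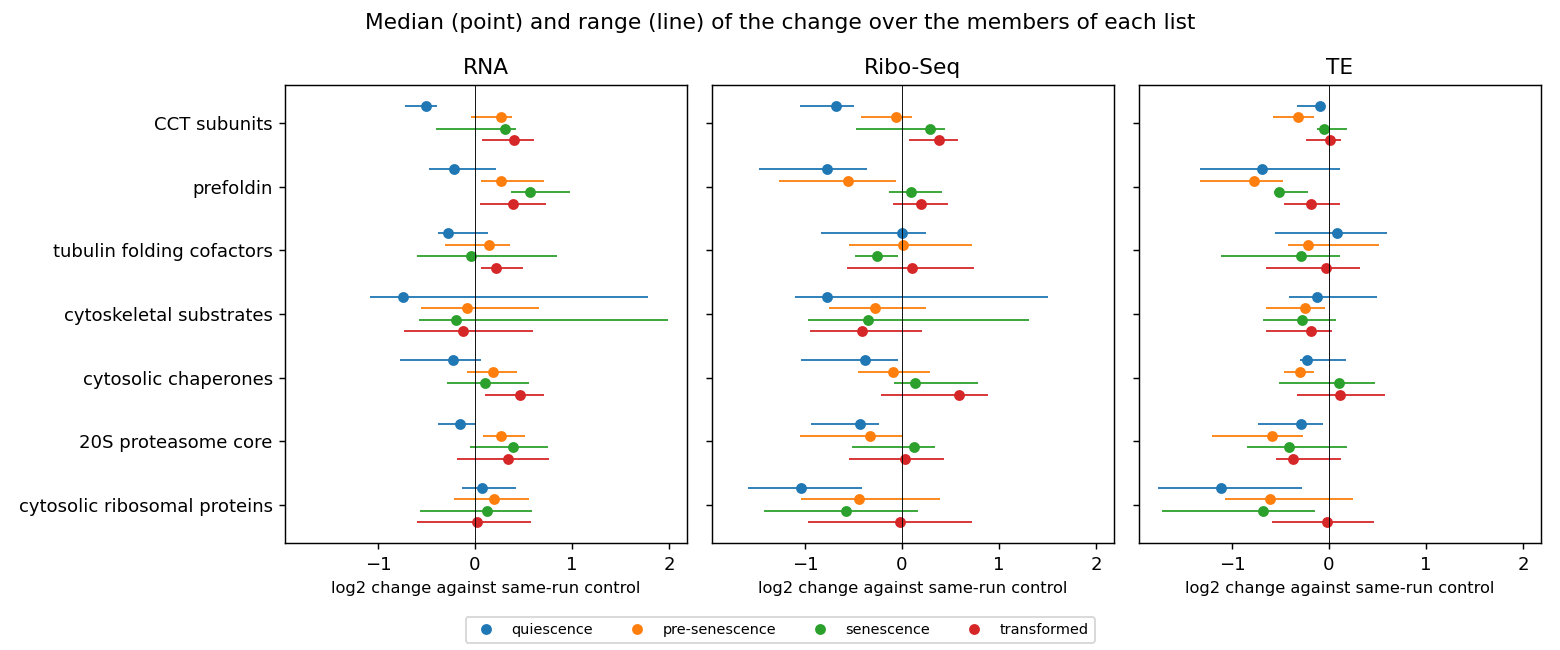
Median (point) and range (line) of the log2 change over the genes of 7 lists in 4 states against the control of the same run, for RNA, Ribo-Seq and TE. In quiescence the CCT subunits lie low in RNA (median -0.51) and near 0 in TE (-0.09), while ribosomal proteins lie near 0 in RNA (0.07) and low in TE (-1.11).

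The sequence before the annotated start was read for the subunits, since their changes lay close together in quiescence and that of CCT5 lay apart in senescence. RefSeq (GRCh38.p14) gave 9 entries for 7 members, with more than 1 start for CCT2 and CCT4, and CCT6A had no entry. The 100 bases upstream of the start are shown for CCT5, for CCT7, the member nearest the mean, and for CCT2, CCT3 and CCT8, which hold a CCAAT box in this window. Each is written 5′ to 3′ on the gene's strand, with CCAAT boxes and GC boxes of either orientation in capitals.
CCT5: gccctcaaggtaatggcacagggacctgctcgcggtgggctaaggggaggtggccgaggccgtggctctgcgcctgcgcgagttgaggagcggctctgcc
CCT7: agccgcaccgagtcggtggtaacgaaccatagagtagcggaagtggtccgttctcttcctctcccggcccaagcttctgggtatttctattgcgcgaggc
CCT2: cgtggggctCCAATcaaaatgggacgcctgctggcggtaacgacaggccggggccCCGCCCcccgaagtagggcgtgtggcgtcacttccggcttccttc
CCT3: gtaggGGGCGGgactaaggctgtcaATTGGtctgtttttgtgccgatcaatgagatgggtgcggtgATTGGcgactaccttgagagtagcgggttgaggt
CCT8: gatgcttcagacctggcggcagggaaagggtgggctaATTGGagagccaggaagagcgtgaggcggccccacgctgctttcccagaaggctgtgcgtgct
These windows lie at chr5:10250437-10250536 on the plus strand for CCT5, chr2:73234208-73234307 on the plus strand for CCT7 and chr12:69585359-69585458 on the plus strand for CCT2. Those of CCT3 and CCT8 lie on the minus strand, at chr1:156338293-156338392 and chr21:29073649-29073748.

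Motifs were searched on both strands from 250 bases before to 50 bases after each start. A CCAAT box (CCAAT) was found in 4 of 9 entries (TCP1, CCT2, CCT3 and CCT8), and in 34.8% of the 10719 entries of genes in the table. A GC box (GGGCGG) was found in 6 of 9 entries, against 67.4%. The core of a heat shock element (GAANNTTC) was found in 2 of 9 entries, 231 bases before the TCP1 start and 89 bases before the second CCT2 start, against 4.82%. An ETS site (CCGGAAG) was found in 1 entry, of CCT2, against 17.7%, and the E-box (CACGTG, 9.43%) and the cyclic AMP response element (TGACGTCA, 2.93%) in none. CCT5 and both entries of CCT4 held none of these 6 motifs. A start at C followed by 4 pyrimidines, the form of translationally regulated ribosomal protein mRNAs, was annotated for 1 entry, of CCT4, against 5.46%. A match to such letters is a description of the window and not evidence of a bound site.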

How the data were processed

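RNA-Seq (9 libraries) and Ribo-Seq (8 libraries) of BJ cells had been aligned by the authors with Bowtie, and the submitters' processing notes name hg19. Per the study's methods, uniquely mapped reads were counted on 1 transcript per Ensembl release 65 gene, the one with the longest coding sequence. RNA was counted over the transcript and Ribo-Seq over the coding sequence. The deposited values are FPKM with a floor of 1, and the table holds no read counts; the library totals listed by the study were not used here. How 2 libraries were combined into each of 5 columns is not given in the sources used here. From the FPKM, log2 ratios to the control of the same run and TE were computed in Python 3.11.15 with numpy 2.4.6 and pandas 2.3.3, with no pseudocount and no filter (at least 10 FPKM for the nearest genes). A row was past the threshold at 1.5-fold in either direction, and shares over all 9699 rows are given beside. The alternative threshold was 1.75 local SDs over 501 rows of similar level. Named genes were the 8 subunits, the genes of listed chaperone, substrate, marker and state-check groups, and the 8 nearest rows; 1 listed gene is not reported here. The members and lists were chosen with earlier results of these data known. No test was run, since no state had replicate columns within a run. Alternatives were the other control, the mean of both controls, pseudocounts, centring on all rows, summed FPKM, other folds and a filter. The calculations were tested on simulated data.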

Additional observations from a re-analysis of the deposited data

Results flagged for a closer look

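The subunits lay in opposite directions in quiescence and in the library labelled transformed, each against the control of its own run. All 8 were lower in quiescence and all 8 higher in transformation, and the medians differed by 0.91 in RNA and 1.06 in Ribo-Seq on the log2 scale. Of all 9699 rows, 4825 were lower in RNA and 5132 in Ribo-Seq in quiescence. The share of rows lower in quiescence and higher in transformation was not computed. The difference was not tested, since no state had replicate columns within a run. The controls of the different runs themselves differed by a median of -0.44 in RNA and -0.56 in Ribo-Seq, and this difference enters the contrast directly. Against the run 1 control the medians in transformation were -0.036 in RNA and -0.096 in Ribo-Seq, so the higher levels there depended on the control used. The part of the run in the contrast was not tested.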

How the results depend on the processing

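No paired analysis was possible because the columns carry no replicate numbers and no state had replicate columns within a run. The choice of control reversed 5 of 12 medians. Against the other run's control the median log2 changes were -0.078 (RNA) and -0.17 (Ribo-Seq) in quiescence, 0.35 (Ribo-Seq) and -0.45 (TE) in pre-senescence, -0.058 (RNA) and -0.21 (Ribo-Seq) in senescence, and -0.036 (RNA) and -0.096 (Ribo-Seq) in transformation. Of these, Ribo-Seq in pre-senescence and both assays in senescence and transformation reversed, and 4 of 12 medians stayed within the spread between controls. Exchanging the Ribo-Seq columns S and C3, an alternative chosen after seeing the data, gave -0.29 (Ribo-Seq) and -0.63 (TE) in senescence and -0.33 (TE) in transformation. The levels of MKI67 and CDK1 followed the headings and not this exchange. Centring on all rows moved the pre-senescence TE to -0.20 and left the other 14 of 15 medians within the spread. With the mean of both controls, which lies within that spread by construction, the Ribo-Seq median was 0.14 in pre-senescence, a change of sign, and 0.038 in senescence, and the TE median in transformation was -0.0091. All 12 medians stayed within the spread with 1 or 10 FPKM added, with summed FPKM and, chosen after seeing the data, without CCT5. At 1.2-fold the subunits past the threshold numbered 8 (RNA), 8 (Ribo-Seq) and 2 (TE) in quiescence, 4, 2 and 5 in pre-senescence, 6 (RNA) and 6 (Ribo-Seq) in senescence and 6 and 6 in transformation. At 2-fold they numbered 0 in RNA and 1 in Ribo-Seq in quiescence and 0 in RNA in transformation, and by local SDs 0 in each of these. Shares of all rows at 1.2-fold, at 2-fold and by local SDs were not computed, so these counts have no background beside them. A filter of 10 FPKM lowered the share of all rows past 1.5-fold in TE to 15.2% in quiescence and 7.90% in transformation and the other 10 of 12 shares moved by less than 1.5 times, pre-senescence Ribo-Seq to 27.4%. The table gives no read counts, so no counting error is given.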
